A study of Mus musculus with 9 samples.

Results

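Thymus SCA1+ mesenchyme was compared with skin SCA1+ mesenchyme in 6 of the 9 libraries of the series, 3 from thymus (labelled 2, 3 and 1-3) and 3 from truncal skin (labelled 1, 2 and 3). The libraries were chosen by their titles, and their reads per gene were compared after a scaling that corrects for the share of reads taken by a few very abundant genes. The labels give no treatment, and the cells came from C57BL/6 mice aged 3 to 4 weeks, and at least 25000 cells were sorted for each sample. Sorted cells carried SCA1, the product of Ly6a, and lacked the markers of a lineage antibody cocktail against leukocytes, red cells, platelets, endothelium and epithelium. The skin was dermis of back and abdomen, and the thymus was digested with Liberase and DNase I, while for skin the sources used here give no digestion. The name 1-3 of a thymus library is not explained in the labels. Should it be a pool, part of its material would also be in thymus 2 and 3, and the thymus spread would be too small. Separate animals are not stated either, so every p-value covers only how these samples spread, and that spread may be technical.

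Mesenchymal cells of the thymus form its capsule, its septa and the coats of its vessels, and they supply growth factors and chemokines to the epithelium and to the developing T cells. Dermal fibroblasts build the collagen-rich dermis and signal to hair follicles. Mesenchymal cells are known to keep an expression pattern of Hox and other homeobox genes that reflects where in the body they arose.

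Levels below are in CPM, counts per 1000000 gene reads, with each library size multiplied by a TMM factor. TMM, the trimmed mean of M-values, sets the bulk of genes level between libraries. Means carry the SD over n = 3 libraries. Log2 fold changes are thymus minus skin with an approximate SE worked back from the test, and a gene was called when its adjusted p fell under 0.05 in edgeR's quasi-likelihood test with Benjamini-Hochberg adjustment. Where a tissue had 0 reads over its 3 libraries, the fold is a lower bound on a floor of 3 reads over the group. Where it had 1 to 3 reads, the ratio comes with its 95% counting interval, which like the floor covers counting error only. In bulk samples, fewer cells of a type and less RNA per cell cannot be told apart.

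Gene reads came to 92394043 to 104101456 per thymus library and 97414733 to 116759235 per skin library, and TMM factors were 1.104 to 1.179 and 0.701 to 0.770. Of 15635 genes tested, 3013 (19.3%) were higher and 2865 (18.3%) lower in thymus, and these shares are the background for every list below. By at least 2-fold, 1914 (12.2%) were higher and 1534 (9.81%) lower. All 3 thymus libraries lay above all 3 skin libraries in 27% of genes tested and below them in 25%, so a lack of overlap is common. The median log2 fold change of all genes tested was 0.03. With library size only that median was 0.66, and 0.32 after Col1a1, Col1a2 and Col3a1 were also taken out, so directions are given relative to the bulk of genes. Skin 3 stood apart from skin 1 and 2 in hair follicle, keratinocyte and interferon genes, and thymus 3 from the other thymus libraries in thymocyte and mesothelial markers, as described at the end.

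The libraries carried transcripts that mark fibroblast-like mesenchyme, and of 8 such markers 2 were higher and 4 lower in thymus. The lower ones included Col1a1 and Col1a2, described below. With library size only, 4 of the 8 were higher and 2 lower. Pdgfra, a growth factor receptor of fibroblasts, stood at 1129, 1202 and 1149 CPM in thymus 1-3, 2 and 3 and at 764, 695 and 869 CPM in skin 1, 2 and 3, and Pdgfrb stood at 717, 823 and 729 CPM in thymus 1-3, 2 and 3 and at 205, 256 and 309 CPM in skin 1, 2 and 3. Both were higher in thymus (log2 fold changes 0.58 ± 0.14 and 1.56 ± 0.16). Dcn, encoding the proteoglycan decorin, was at 9439.7 ± 1682 CPM in thymus and 7826 ± 1378 in skin and did not pass (adjusted p = 0.276). Ly6a was at 476, 377 and 427 CPM in thymus and 669, 794 and 1381 in skin (log2 fold change -1.15 ± 0.25, adjusted p = 0.00306), and the call was lost with library size only (adjusted p = 0.0801). Of 9 genes of the sort antibodies' targets 4 were higher and 4 lower. Ptprc, encoding CD45, was at 14.1, 7.26 and 38.6 CPM in thymus and 2.27, 0.484 and 1.13 in skin. Cd4 was at 18.2 ± 8.92 CPM in thymus and 0.158 ± 0.106 in skin, and Itga2b, encoding CD41, at 1.36 ± 0.61 CPM in thymus and 17.7 ± 2.46 in skin. Epcam, encoding the epithelial EpCAM, stood at 1.25 ± 0.413 CPM in thymus and 3.31 ± 1.73 in skin and did not pass (adjusted p = 0.305).

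Thymus mesenchyme held less collagen I and III RNA than skin mesenchyme. Col1a1 and Col1a2, the chains of collagen I, and Col3a1, of collagen III, together took 4.17, 4.31 and 4.86% of gene reads in thymus 1-3, 2 and 3 and 24.8, 24.9 and 23.5% in skin 1, 2 and 3. The means were 4.45 ± 0.365% and 24.4 ± 0.772% (SD, n = 3), and the groups did not overlap (two-sided exact permutation test, p = 0.1, the smallest that 3 against 3 can give). Col1a1 stood at 7749, 6384 and 6756 CPM in thymus 1-3, 2 and 3 and at 93927, 106280.0 and 91525 CPM in skin 1, 2 and 3 (log2 fold change -3.80 ± 0.17, adjusted p = 4.67e-08). Col1a2 was lower in thymus by 9.29-fold and Col3a1 by 6.56-fold. Per gene length, the deposited RPKM of Col3a1 was 4002 in thymus and 18029 in skin, and that of Col1a1 1447 in thymus and 13909 in skin, with Col3a1 above Col1a1 in both tissues on that scale. Fibrillar and fibril-associated collagens had 9 of 14 members lower and 2 higher, with a median log2 fold change of -1.15. Chains that nucleate fibrils were lower as well. Col5a1 was at 2917 ± 292 CPM in thymus and 13821 ± 2669 in skin (log2 fold change -2.24 ± 0.18, adjusted p = 2.23e-06), and Col11a1 at 0.569 ± 0.249 CPM in thymus and 17.5 ± 6.94 in skin (-4.96 ± 0.47). The exceptions were Col27a1 and Col24a1, both minor fibrillar chains. Col27a1 was at 151, 146 and 114 CPM in thymus and 28, 29.4 and 19.8 CPM in skin, higher in thymus (2.41 ± 0.17), and Col24a1 was higher as well (3.34 ± 0.65). In mm10, Col1a1 lies on chromosome 11, 94936270 to 94951856 and Col3a1 on chromosome 1, 45311538 to 45349706.

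The enzymes and chaperones that make and process procollagen were mostly lower in thymus too. Of 31 members, 24 were lower and 4 higher, with a median of -0.92, against 18.3% lower among all genes. P4ha2, a prolyl hydroxylase subunit, stood at 74.4, 77 and 77.4 CPM in thymus 1-3, 2 and 3 and at 481, 491 and 298 CPM in skin 1, 2 and 3 (log2 fold change -2.47 ± 0.19, adjusted p = 1.52e-06). Loxl1, a lysyl oxidase that crosslinks collagen and elastin, stood at 539, 322 and 469 CPM in thymus 1-3, 2 and 3 and at 1845, 2252 and 2054 CPM in skin 1, 2 and 3 (log2 fold change -2.21 ± 0.20, adjusted p = 5.55e-06). Pcolce2, which enhances procollagen cleavage, was lower by 7.39-fold, and Sparc, a collagen-binding glycoprotein, by 4.12-fold. In each of these genes all 3 thymus libraries lay below all 3 skin libraries, which held for 25% of all genes tested. The members higher in thymus were Leprel1, a prolyl 3-hydroxylase (3.78 ± 0.30), Adamts3, a procollagen N-proteinase (1.59 ± 0.24), the lysyl hydroxylase Plod1 (0.67 ± 0.14) and the collagen galactosyltransferase Glt25d2 (1.15 ± 0.22). Scaled by library size only, 15 were lower and 7 higher. Fn1, encoding fibronectin, stood at 3018, 1614 and 2602 CPM in thymus 1-3, 2 and 3 and at 21233, 23979 and 16098 CPM in skin 1, 2 and 3 (log2 fold change -3.08 ± 0.25, adjusted p = 2.88e-06).

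**Figure D1:**
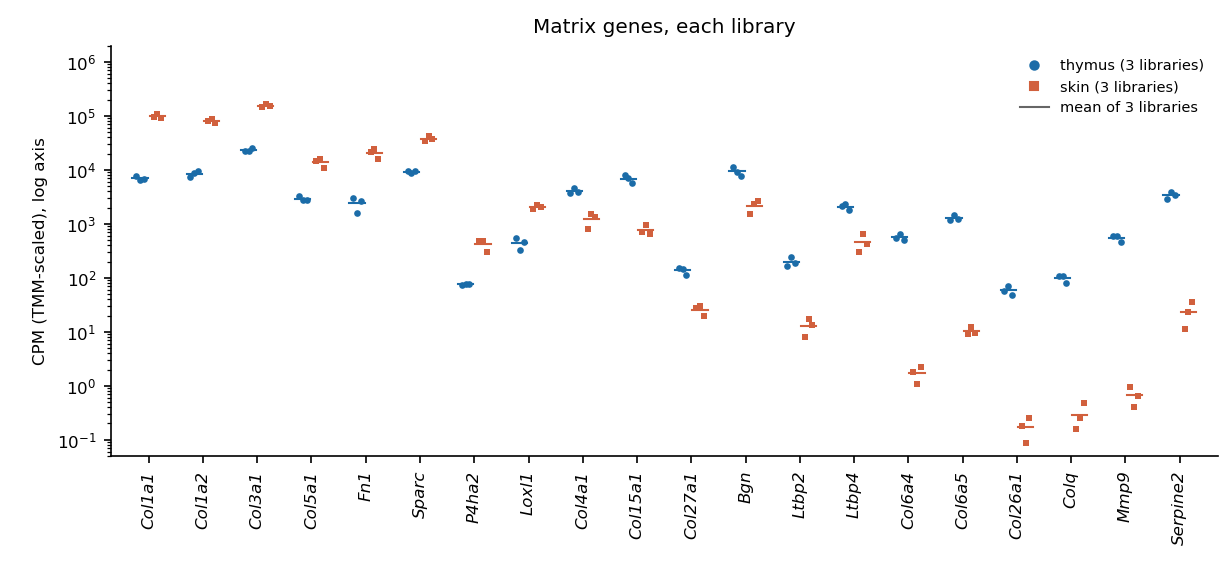
Levels of 20 matrix genes in each library, in TMM-scaled CPM on a log axis. Each point is a library, with thymus as circles and skin as squares, and each line is the mean of 3 libraries. The collagens I and III on the left are higher in skin in every library, while Col6a4, Col26a1, Colq, Mmp9 and Serpine2 on the right are higher in thymus in every library.

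Collagens outside the fibrillar and basement membrane groups had 10 of 23 members higher and 2 lower, with a median of 1.44. Col6a4 stood at 557, 661 and 509 CPM in thymus 1-3, 2 and 3 and at 1.82, 1.07 and 2.21 CPM in skin 1, 2 and 3, and Col6a5 at 1188, 1484 and 1235 CPM in thymus 1-3, 2 and 3 and at 9.12, 12.1 and 9.58 CPM in skin 1, 2 and 3. These alternative collagen VI chains were higher in thymus by 329-fold and 129-fold, whereas Col6a3, which joins the common collagen VI heterotrimer, was at 4611 ± 440.2 CPM in thymus and 7516 ± 1084 in skin (-0.70 ± 0.16, the call lost with library size only, adjusted p = 0.702). Colq, the collagen tail that anchors acetylcholinesterase, stood at 108, 110.2 and 78.7 CPM in thymus and 0.157, 0.249 and 0.473 CPM in skin (log2 fold change 8.39 ± 0.44, adjusted p = 3.06e-07). Col26a1 was at 57.1, 71.9 and 48.7 CPM in thymus and at most 0.254 CPM in any skin library. Col7a1, whose collagen VII anchors basement membranes to the stroma, was also higher (4.30 ± 0.22).

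Basement membrane genes divided by chain, with 8 of 24 higher and 5 lower in thymus and a median of 0.37. Col4a1 and Col4a2, the common collagen IV chains, were at 4050.4 ± 459 CPM in thymus and 1220.1 ± 383 in skin and at 2844 ± 219 CPM in thymus and 964 ± 260.1 in skin, both higher (1.73 ± 0.22 and 1.56 ± 0.19). Col15a1, a collagen of basement membrane zones around vessels, stood at 7858, 7027 and 5638 CPM in thymus 1-3, 2 and 3 and at 699, 968 and 640.1 CPM in skin 1, 2 and 3 (log2 fold change 3.15 ± 0.21, adjusted p = 6.5e-07). The laminin chain gene Lamb2 was lower (-1.56 ± 0.16), and Nid1, encoding the linker nidogen-1, was at 2874 ± 479.6 CPM in thymus and 5808 ± 797 in skin (-1.01 ± 0.19). The call of Nid1 was lost with library size only (adjusted p = 0.0913), under which 13 members were higher and 3 lower.

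Elastic fibre genes and small proteoglycans had 16 of 29 members lower and 8 higher. Mfap2 and Mfap4, microfibril proteins, were lower (-3.18 ± 0.41 and -2.53 ± 0.39), with Mfap2 at 188, 55.2 and 80.5 CPM in thymus and 932, 1070.3 and 934 CPM in skin. Thymus 1-3 had the highest Mfap2 of the thymus libraries and still lay below every skin library. Emilin2 and Efemp1, of the same fibres, were lower too (-2.32 ± 0.21 and -1.78 ± 0.20). The latent TGF-beta binding proteins went the other way for Ltbp1, Ltbp2 and Ltbp4 (2.20 ± 0.17, 3.93 ± 0.26 and 2.19 ± 0.26). Bgn, encoding biglycan, stood at 11478, 9269.6 and 7833 CPM in thymus 1-3, 2 and 3 and at 1488, 2373 and 2606 CPM in skin 1, 2 and 3 (log2 fold change 2.14 ± 0.22, adjusted p = 1.7e-05). By library size only, 9 members of the list were lower.

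Matrix proteases and their inhibitors had 9 of 41 members higher and 16 lower, with a median of -0.16, and 17 were higher with library size only. Mmp9, a gelatinase that cuts collagen IV, stood at 585, 601 and 461 CPM in thymus 1-3, 2 and 3 and at 0.956, 0.41 and 0.657 CPM in skin 1, 2 and 3 (log2 fold change 9.65 ± 0.30, adjusted p = 4.79e-09). Serpine2, an inhibitor of thrombin and plasminogen activators, stood at 2910.4, 3937 and 3427 CPM in thymus 1-3, 2 and 3 and at 11.1, 23.5 and 35.6 CPM in skin 1, 2 and 3 (log2 fold change 7.20 ± 0.42, adjusted p = 6.5e-07). Adamts8 was higher (4.73 ± 0.32), while Adamts1, a versican- and aggrecan-cleaving protease, was at 131 ± 30.0 CPM in thymus and 1086 ± 58.1 in skin (-3.05 ± 0.18). Adamts18 was at 11.8 ± 7.32 CPM in skin and had 6 reads over the thymus libraries. The count of members higher was 5 to 7 when any 1 of the 6 libraries was left out, and it was 5 without thymus 2, without skin 2 or without skin 3. In mm10, Mmp9 lies on chromosome 2, 164948251 to 164955846 and Serpine2 on chromosome 1, 79794321 to 79858665.

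**Figure D2:**
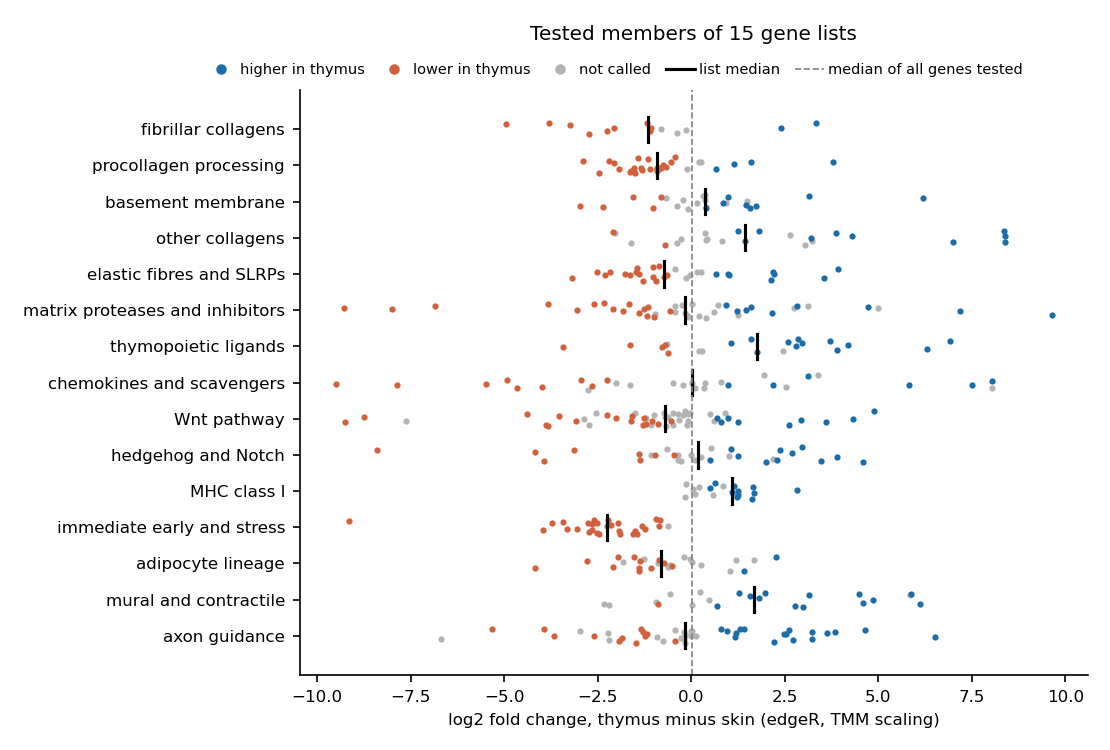
Log2 fold changes, thymus minus skin, of the tested members of 15 gene lists. Each point is a gene, coloured by whether it was called higher, called lower or not called, the black bar is the list median and the dashed line the median of all genes tested. Immediate early and stress genes, fibrillar collagens and procollagen processing genes lie mostly to the left, and mural and contractile, MHC class I and other collagen genes mostly to the right. Points beyond about 8 in either direction include genes with few or no reads in 1 tissue, whose fitted values are no estimates of size.

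Hox genes of low and high paralogue groups differed in opposite directions. These factors are expressed in nested domains along the body axis, the low-numbered groups towards the head and the high-numbered towards the tail. Of 12 genes of groups 1 to 4, 10 passed the filter on low counts, of which 6 were higher in thymus and 1 lower, with a median of 2.06. Hoxa2 stood at 12.3, 12 and 10.2 CPM in thymus 1-3, 2 and 3 and at 0.956, 0.366 and 0.115 CPM in skin 1, 2 and 3 (log2 fold change 4.58 ± 0.66, adjusted p = 0.000217). Hoxa3, which the pharyngeal pouches need to form a thymus, stood at 34.8, 16.6 and 16.1 CPM in thymus 1-3, 2 and 3 and at 2.44, 1.47 and 2.51 CPM in skin 1, 2 and 3 (log2 fold change 3.39 ± 0.49, adjusted p = 0.000312). Thymus 1-3 was the highest for Hoxa3, and the tissues did not overlap. Hoxd3 and Hoxd4 were higher (3.72 ± 0.44 and 2.88 ± 0.54), as were Hoxa4 (2.80 ± 0.76) and Hoxb3 (1.32 ± 0.31). The call of Hoxa4 was lost without thymus 1-3 (adjusted p = 0.0704). Hoxc4 alone of the group was lower (-1.69 ± 0.37). Hoxb2 and Hoxb4 were not called (adjusted p = 0.155 and 0.934), and Hoxb1 and Hoxd1 did not pass the filter.

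Groups 5 to 8 had 7 of 11 members lower and 0 higher (0 also by DESeq2, and 1, Hoxa5, at an unadjusted p under 0.05), with a median of -3.24. With library size only 2 members, Hoxa5 and Hoxd8, were called higher (adjusted p = 0.00805 and 0.0169). Both were also called higher in limma on log2(RPKM + 1) (adjusted p = 0.0162 and 0.0176). Hoxc6 stood at 1.16, 0.864 and 1.34 CPM in thymus 1-3, 2 and 3 and at 33.8, 32.7 and 36.1 CPM in skin 1, 2 and 3 (log2 fold change -4.93 ± 0.26, adjusted p = 1.26e-07). Hoxc8 had 3 reads over the thymus libraries and stood at 32.8, 33.6 and 34.3 CPM in skin 1, 2 and 3. Hoxb7 and Hoxb8 had 0 reads in thymus and were lower by at least 303-fold and at least 246-fold. Hoxa7 and Hoxc5 were lower as well (-4.93 ± 0.95 and -2.65 ± 0.40). Hoxb6 was at 0.29 ± 0.348 CPM in thymus and 2.75 ± 0.0898 in skin, a call lost without thymus 2, thymus 3 or any of the skin libraries (adjusted p = 0.0754, 0.129, 0.1, 0.121 and 0.0912). Hoxd8 was measured at close levels, 15.4, 20.2 and 17.4 CPM in thymus and 15.5, 18 and 15.1 in skin (adjusted p = 0.71). Hoxa5 stood at 4.65 ± 2.09 CPM in thymus and 2.1 ± 0.503 in skin, Hoxa6 at 0.0327 ± 0.0566 CPM in thymus and 0.125 ± 0.151 in skin and Hoxb5 at 0.661 ± 0.423 CPM in thymus and 1.1 ± 0.556 in skin, none of them called. Without thymus 2, Hoxa5 was called higher (adjusted p = 0.0266).

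Of the 16 genes of groups 9 to 13, 9 had 0 reads in thymus and 5 had 0 reads in skin. The filter passed 13, of which 9 were lower and 0 higher (0 also by DESeq2 and at an unadjusted p under 0.05), with a median of -6.53, or -5.94 with genes at 0 reads set to their bound. Hoxc10 stood at 30.5, 27.2 and 32.4 CPM in skin and had 2 reads in thymus, a ratio of 5158-fold (95% counting interval 1427 to 42597). Hoxc9 showed a 3761-fold (95% counting interval 1041 to 31067) excess in skin. Hoxa10 was at 11.1, 9.6 and 14.2 CPM in skin with 0 reads in thymus, lower by at least 1339-fold. Hoxa9 was lower (-8.40 ± 0.76), Hoxb9 by at least 153-fold and Hoxa11 by at least 13-fold. Hoxa11 rested on 28 reads over the skin libraries, beside a mean of 22.9 CPM in bone. Its call was lost in limma on log2(RPKM + 1) (adjusted p = 0.728), where 4 of 10 tested members of groups 9 to 13 were lower. Hoxc13, which also marks the hair matrix, stood at 1.34, 2.1 and 12.2 CPM in skin 1, 2 and 3, with most of it in skin 3, and its call was lost without thymus 2 (adjusted p = 0.0505). Hoxd9 was not called, at 1.42, 2.53 and 1.11 CPM in thymus and 1.83, 2.71 and 2.17 CPM in skin (adjusted p = 0.38). Of the other 3 tested members that were not called, 2 had 0 reads in both tissues and passed the filter through the bone libraries. In mm10, Hoxc8 lies on chromosome 15, 102990539 to 102994254, Hoxc10 on chromosome 15, 102966796 to 102971897 and Hoxa3 on chromosome 6, 52169062 to 52200938. Because Hox clusters contain antisense and overlapping transcripts, and the sources used here do not state whether counting used strand, values of single Hox genes carry that uncertainty.

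**Figure D3:**
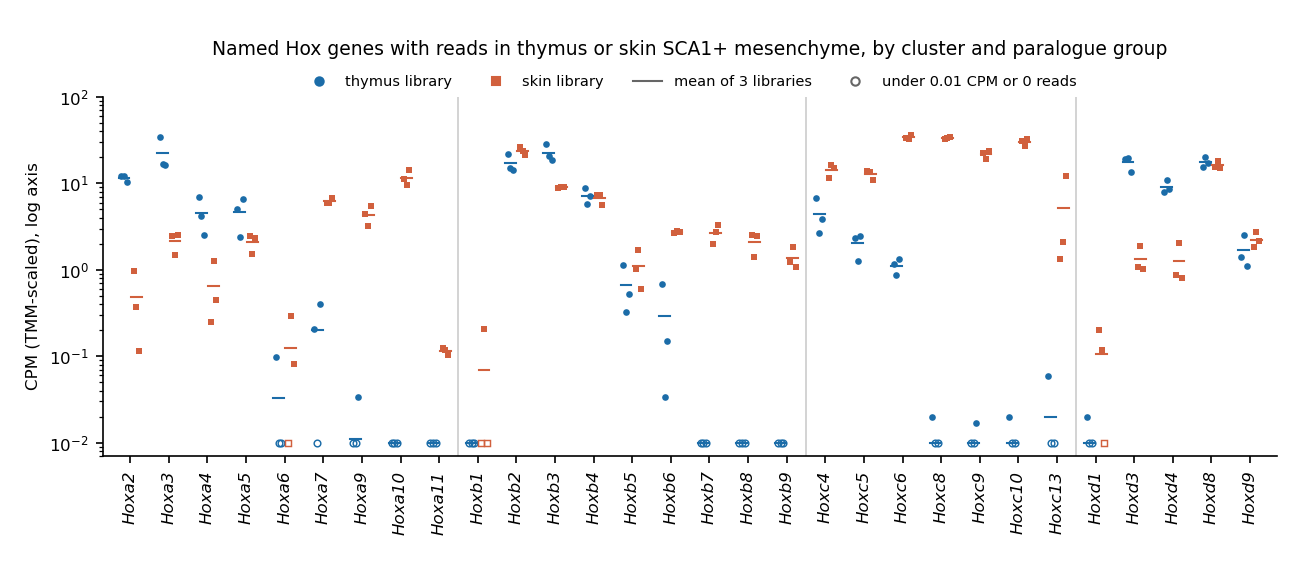
Levels of the Hox genes named here that had at least 1 read in thymus or skin, in TMM-scaled CPM on a log axis, ordered by cluster and paralogue group. Points are libraries, lines are means of 3 libraries, and open symbols at 0.01 mark libraries below 0.01 CPM or with 0 reads. Thymus libraries lie above skin for Hoxa2, Hoxa3 and Hoxd3 and at or near 0 reads from group 8 upwards in the A, B and C clusters, while Hoxd8 and Hoxd9 overlap.

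Factors of dermal identity were lower in thymus for 18 of the 26 members that passed the filter, of 28, and higher for 2, with a median of -3.77, or -2.96 with genes at 0 reads set to their bound. En1, a homeobox factor, stood at 0.421, 0.545 and 0.0753 CPM in thymus 1-3, 2 and 3 and at 49.2, 55.8 and 61.2 CPM in skin 1, 2 and 3 (log2 fold change -7.32 ± 0.67, adjusted p = 2.34e-05). Tbx15, a T-box factor of the dorsal dermis, stood at 4.97, 4.25 and 3.92 CPM in thymus 1-3, 2 and 3 and at 129, 125 and 162 CPM in skin 1, 2 and 3 (log2 fold change -4.99 ± 0.17, adjusted p = 5.74e-09). Zic1 was at 29.9, 23 and 21.9 CPM in skin and was lower by 4281-fold (95% counting interval 1185 to 35359), and Zic4 by 302-fold (95% counting interval 83 to 2499.6). Twist2, also called Dermo1, stood at 5.95, 5.45 and 6.45 CPM in thymus 1-3, 2 and 3 and at 51.4, 65.2 and 54 CPM in skin 1, 2 and 3 (log2 fold change -3.26 ± 0.17, adjusted p = 8.97e-08), and Twist1 was lower to a smaller degree (-1.59 ± 0.15). The Iroquois factors Irx1, Irx3 and Irx5 were lower (-6.23 ± 0.79, -4.29 ± 0.35 and -5.67 ± 0.48). Pax1, a factor of the pharyngeal pouches and sclerotome, was at 0.52, 0.042 and 0.184 CPM in thymus and 19.9, 15.5 and 14.7 CPM in skin (-6.08 ± 0.67). Its direction was opposite to the more frequent one among the pharyngeal and thoracic factors below. Prrx1, a factor of limb and dermal mesenchyme, was at 444 ± 44.8 CPM in thymus and 733 ± 66.3 in skin (-0.72 ± 0.14), with the call lost under library size only (adjusted p = 0.577). Trps1 went the other way, at 81.4, 87.5 and 73.2 CPM in thymus and 1.42, 0.674 and 3.1 CPM in skin (log2 fold change 5.53 ± 0.46, adjusted p = 1.29e-05), and so did Msx1 (1.55 ± 0.27). Tbx18, Lef1 and Alx4 were not called (adjusted p = 0.227, 0.41 and 0.798), although Lef1 was without skin 3 (adjusted p = 0.0105). Dlx3 and Msx2, factors of the hair matrix as well, were lower (-7.73 ± 0.93 and -5.79 ± 1.11) and stood highest in skin 3, at 39.5 and 17.5 CPM.

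Factors of pharyngeal and thoracic mesenchyme were more often higher, with 16 of 31 tested members, of 36, higher in thymus and 4 lower, and a median of 1.71. Meox1, a homeobox factor of somite-derived mesenchyme, stood at 256, 209.7 and 176 CPM in thymus 1-3, 2 and 3 and at 8.47, 11.8 and 9.28 CPM in skin 1, 2 and 3 (log2 fold change 4.44 ± 0.21, adjusted p = 6.79e-08), and its relative Meox2 was higher too (2.06 ± 0.20). Tbx2, a T-box repressor, stood at 139.6, 119 and 86.1 CPM in thymus 1-3, 2 and 3 and at 2.16, 4.43 and 1.55 CPM in skin 1, 2 and 3 (log2 fold change 5.42 ± 0.45, adjusted p = 1.18e-05), and Tbx3 was higher by 3.29-fold. Hand2, a factor of pharyngeal arch and heart mesenchyme, stood at 35.5, 25.8 and 18.9 CPM in thymus and 2.18, 2.59 and 2.62 CPM in skin (3.44 ± 0.27). Foxc2 and Foxc1, forkhead factors of head and vessel mesenchyme, were higher (5.09 ± 0.45 and 2.75 ± 0.15), as was Foxf1 (3.06 ± 0.39). Tcf21, a bHLH factor of visceral mesenchyme, was at 16.8, 16.5 and 12.3 CPM in thymus and at 0, 0 and 0.277 in skin. Eya1, which the thymus primordium needs, was at 6.7, 5.83 and 4.57 CPM in thymus and 0.0337, 0 and 0.438 CPM in skin (5.13 ± 1.03). Barx1 stood at 2.3, 2.43 and 1.88 CPM in thymus and 0.045, 0 and 0 CPM in skin (134-fold higher). Foxl1 had 0 reads in skin and was higher by at least 83.8-fold. Osr2 was lower, at 77.3, 44.9 and 40.7 CPM in thymus and 422, 521 and 767 CPM in skin (log2 fold change -3.39 ± 0.29, adjusted p = 6.57e-06), while Gata6 and Sox9 were not called (adjusted p = 0.635 and 0.0952), although Sox9 was without thymus 3 (adjusted p = 0.0347). Wt1 was at 20.3, 12.3 and 25 CPM in thymus and 0, 0.176 and 0 in skin, and it is also a marker of mesothelium, whose other markers were highest in the same library, thymus 3. Its part in the Wt1 level was not tested.

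Ligands that act on lymphoid and myeloid cells were higher in thymus for 12 of the 21 members of 22 that passed the filter and lower for 5, with a median of 1.75. Enpp2, whose product autotaxin makes lysophosphatidic acid, stood at 3011, 4403 and 3729 CPM in thymus 1-3, 2 and 3 and at 22.5, 30.8 and 38 CPM in skin 1, 2 and 3 (log2 fold change 6.93 ± 0.26, adjusted p = 1.25e-08). Il34, a ligand of the macrophage receptor CSF1R, stood at 297, 426 and 332 CPM in thymus 1-3, 2 and 3 and at 1.83, 4.37 and 7.1 CPM in skin 1, 2 and 3 (log2 fold change 6.31 ± 0.47, adjusted p = 6.03e-06), and Csf1, the other ligand of that receptor, was at 252 ± 54.8 CPM in thymus and 781 ± 84.7 in skin, lower in thymus (-1.63 ± 0.18). Ccl19, which draws CCR7-bearing cells, stood at 56.3, 65 and 61.1 CPM in thymus and 4.35, 5.6 and 3.97 CPM in skin (3.71 ± 0.19). Il7, the cytokine that early T cells depend on, was at 3.81, 6.47 and 4.26 CPM in thymus and 0.112, 0.264 and 0.415 CPM in skin (4.19 ± 0.58). Flt3l, Kitl, Il15 and Tnfsf13b, growth and survival factors of lymphoid cells, were also higher (2.86 ± 0.25, 1.59 ± 0.22, 1.75 ± 0.29 and 2.79 ± 0.34). Members lower in thymus besides Csf1 included Cxcl10 (-3.44 ± 0.23) and, with overlapping libraries, Icam1 (-0.79 ± 0.22). Of the Notch ligands, which direct the T cell fate, Dll1 stood at 8.51, 13 and 13.3 CPM in thymus and 0.821, 1.76 and 1.86 CPM in skin (2.97 ± 0.39) and Jag1 was higher (1.07 ± 0.16). Cxcl12, which acts on progenitors through CXCR4, was at 231 ± 34.8 CPM in thymus and 359 ± 82.7 in skin (-0.63 ± 0.19), a call lost with library size only (log2 fold change 0.01, adjusted p = 0.975), without thymus 3 and without skin 2 (adjusted p = 0.0637 and 0.0966). The count of members lower was 2 without thymus 3 and 3 without skin 2 or skin 3, and it was 2 with library size only. In mm10, Enpp2 lies on chromosome 15, 54838898 to 54920146 and Il34 on chromosome 8, 110741829 to 110805903.

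Among chemokines, Cxcl1, Cxcl2, Ccl2 and Ccl7, which draw neutrophils and monocytes, were lower in thymus, and Cx3cl1 and Ccl11 were higher. Of 31 chemokine and scavenger receptor genes 29 passed the filter, of which 6 were higher and 9 lower. Cxcl1 stood at 17.3, 26.8 and 70.9 CPM in thymus 1-3, 2 and 3 and at 1032, 1098 and 1379.8 CPM in skin 1, 2 and 3 (log2 fold change -4.93 ± 0.56, adjusted p = 0.0001). Cxcl2 stood at 0.245, 0.0503 and 0.561 CPM in thymus 1-3, 2 and 3 and at 52.5, 70.3 and 80.1 CPM in skin 1, 2 and 3 (log2 fold change -7.88 ± 0.68, adjusted p = 1.54e-05). Cxcl3 had 2 reads in thymus and 2.92, 4.15 and 8.83 CPM in skin, a ratio of 914-fold (95% counting interval 253 to 7558), although its call was lost without each thymus library in turn. Without thymus 1-3, 2 and 3 its adjusted p was 0.0564, 0.0669 and 0.0646. The monocyte chemokines Ccl2 and Ccl7 were lower in thymus (-4.67 ± 0.48 and -3.99 ± 0.44), and Cxcl10, induced by interferon, was at 33.2, 42 and 45.3 CPM in thymus and 359.9, 378 and 572 CPM in skin (-3.44 ± 0.23). Cx3cl1, whose membrane-bound form fractalkine holds CX3CR1-bearing cells, stood at 172, 211 and 180.1 CPM in thymus 1-3, 2 and 3 and at 0.54, 1.3 and 1.27 CPM in skin 1, 2 and 3 (log2 fold change 7.51 ± 0.33, adjusted p = 6.94e-08). Ccl11, the eosinophil chemokine eotaxin, was higher (2.19 ± 0.27). The scavenger receptors divided, with Cxcr7 (ACKR3), which removes CXCL12, lower (-2.65 ± 0.31) and Ccrl1 (ACKR4), which removes CCL19, higher in thymus (3.13 ± 0.35).

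Promoter letters are shown for Cxcl1, Cxcl2 and Cxcl3, and for Nfkbia, the NF-kB inhibitor gene that NF-kB itself induces. These genes were lower in thymus and were picked because they share a motif. Among the 17 chemokine genes with an entry, only Cxcl1, Cxcl2 and Cxcl3 held it. They do not stand for the other chemokines that were lower in thymus. The stretches are the 130 bases before each RefSeq gene start, 5′ to 3′ on the gene's strand, in GRCm38.p6. Capitals mark a form of the NF-kB motif, GGGA, any base and TTTCC in a row, searched on both strands.
Cxcl1, chr5:90891115-90891244, plus strand: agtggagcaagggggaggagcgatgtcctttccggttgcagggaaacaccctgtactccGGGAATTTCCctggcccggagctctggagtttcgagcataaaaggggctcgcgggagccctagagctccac
Cxcl2, chr5:90903769-90903898, plus strand: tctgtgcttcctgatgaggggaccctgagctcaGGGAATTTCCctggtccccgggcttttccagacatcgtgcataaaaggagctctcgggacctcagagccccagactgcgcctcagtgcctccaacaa
Cxcl3, chr5:90785971-90786100, plus strand: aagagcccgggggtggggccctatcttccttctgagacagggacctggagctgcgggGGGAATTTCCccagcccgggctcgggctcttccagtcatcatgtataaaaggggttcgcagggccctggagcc
Nfkbia, chr12:55492648-55492777, minus strand: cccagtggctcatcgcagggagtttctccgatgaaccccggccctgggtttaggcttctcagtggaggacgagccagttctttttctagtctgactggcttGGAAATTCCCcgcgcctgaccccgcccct

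The motif began 71 bases before the start of Cxcl1, 97 before that of Cxcl2 and 73 before that of Cxcl3, and read GGGAATTTCC in all of these. In Nfkbia they lay on the opposite strand, from 29 to 20 bases before the start. Over the 250 bases before the start, the motif occurred in 112 of 27025 genes with an entry (0.414%) and in 0.523% of those tested, in 3 of 17 chemokine genes and in 2 of 20 genes of the lymphotoxin and NF-kB list. The other gene of that list with a match was Nfkb2, which stood higher in thymus (1.14 ± 0.19). Of 24 early response genes 0 held it. The letters TGACGTCA, a cAMP response element, occurred in 1.77% of all genes, in 2.83% of those tested and in 3 of those 24, Dusp1, Btg2 and Maff. A match is a description of letters and does not show that a factor binds there.

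Genes around NF-kB moved in both directions, with 10 of 25 higher and 8 lower. Nfkbia stood at 108, 108 and 100.5 CPM in thymus 1-3, 2 and 3 and at 723, 692 and 818 CPM in skin 1, 2 and 3 (log2 fold change -2.82 ± 0.15, adjusted p = 1.32e-07). Tnfaip3, a feedback inhibitor induced by the canonical pathway, was lower (-1.49 ± 0.24), as were the subunit genes Rel and Rela (-3.66 ± 0.23 and -1.37 ± 0.24). Traf1, an adaptor of TNF receptors, stood at 25.4, 32.7 and 31 CPM in thymus and 0.989, 0.601 and 1.51 CPM in skin (4.83 ± 0.33), and Nfkbie and Traf2 were also higher (2.38 ± 0.21 and 1.40 ± 0.22). These counts were 16 and 5 by library size only.

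Immediate early and stress genes were lower in thymus for 28 of 29 members, with a median of -2.24, and 0 were higher in edgeR, in DESeq2 and at an unadjusted p under 0.05. These genes are switched on within minutes by growth factors, stress or tissue handling. Atf3, a stress-induced factor, stood at 18.6, 61 and 116 CPM in thymus 1-3, 2 and 3 and at 818, 1047 and 1197 CPM in skin 1, 2 and 3 (log2 fold change -3.97 ± 0.57, adjusted p = 0.000458). Nr4a1, an orphan receptor of the early response, stood at 53.8, 47.9 and 87.9 CPM in thymus 1-3, 2 and 3 and at 664, 766 and 610.4 CPM in skin 1, 2 and 3 (log2 fold change -3.43 ± 0.23, adjusted p = 6.34e-07). Zfp36, whose product destabilises inflammatory mRNAs, was at 664 ± 128 CPM in thymus and 3814 ± 655 in skin (-2.52 ± 0.20), and Dnajb1, a heat shock co-chaperone, at 49.4 ± 10.4 CPM in thymus and 652 ± 194 in skin (-3.72 ± 0.25). Fosl1 had 7 reads over the thymus libraries and stood at 5.41, 18.5 and 14 CPM in skin. Myc was lower by 8.27-fold and Klf4 by 5.63-fold. Thymus cells were not free of these transcripts. Fos stood at 834, 1546 and 1772 CPM in thymus 1-3, 2 and 3 and at 2284, 2364 and 2960.5 CPM in skin 1, 2 and 3 (-0.87 ± 0.24), and Jun at 1323, 1526 and 1490.0 CPM in thymus 1-3, 2 and 3 and at 2420.3, 2589 and 2744 CPM in skin 1, 2 and 3 (-0.84 ± 0.14), the smallest differences among those called, and both calls were lost with library size only (adjusted p = 0.453 and 0.228). In all 6 leave-one-out fits 28 or 29 members were lower. The skin and thymus libraries differ in dissection and may differ in digestion, and tissue handling and tissue cannot be told apart.

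**Figure D4:**
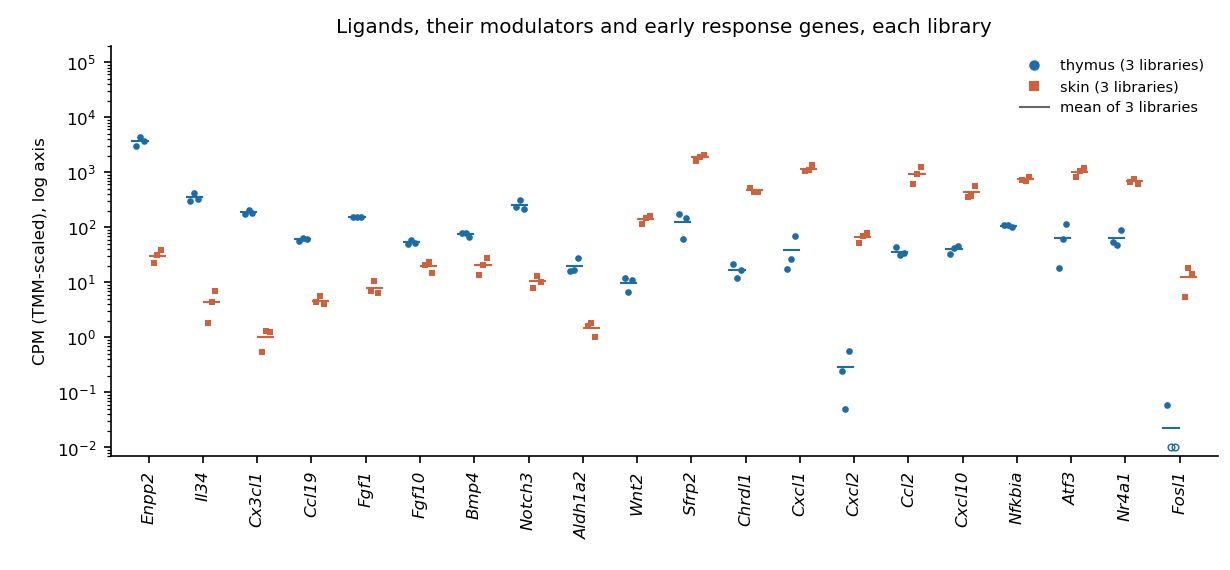
Levels of 20 ligand, signalling and early response genes in each library, in TMM-scaled CPM on a log axis. Points are libraries, with thymus as circles and skin as squares, lines are means of 3 libraries, and open symbols mark libraries below 0.01 CPM. From Enpp2 to Aldh1a2 every thymus library lies above every skin library, and from Wnt2 to Fosl1 every thymus library lies below.

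Growth factors that act on epithelium were mixed, with 7 of 28 higher and 10 lower. Fgf1 stood at 157, 151 and 153 CPM in thymus 1-3, 2 and 3 and at 6.96, 10.4 and 6.33 CPM in skin 1, 2 and 3 (log2 fold change 4.29 ± 0.27, adjusted p = 5.86e-07). Fgf10, which drives the growth of thymic epithelium, stood at 50.6, 58.3 and 51.2 CPM in thymus and 20.4, 23 and 15 CPM in skin (log2 fold change 1.45 ± 0.45, adjusted p = 0.0285). The tissues did not overlap for Fgf10, but its call was lost when any 1 of the 6 libraries was left out, with an adjusted p of 0.0576 to 0.101. Bmp4, needed for thymus and parathyroid morphogenesis, was at 74.9 ± 6.12 CPM in thymus and 20.6 ± 7.07 in skin (1.86 ± 0.22). The activin subunit genes Inhba and Inhbb were higher (3.89 ± 0.79 and 3.60 ± 0.41), while Fst, whose follistatin binds activin, was lower (-2.91 ± 0.28). Chrdl1, an antagonist of BMP4, stood at 21.8, 12.2 and 16.7 CPM in thymus 1-3, 2 and 3 and at 512, 440.1 and 446 CPM in skin 1, 2 and 3 (log2 fold change -4.79 ± 0.21, adjusted p = 3.9e-08). Bmp7 was lower (-2.56 ± 0.57). Of 46 BMP and TGF-beta genes 12 were higher, or 19 with library size only, and 15 lower. Eng, encoding the co-receptor endoglin, was higher (1.85 ± 0.17).

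Wnt ligands and modulators were lower for 17 of 51 members that passed the filter and higher for 9, or 17 with library size only. Wnt2 stood at 11.8, 6.57 and 11.2 CPM in thymus 1-3, 2 and 3 and at 113, 149.5 and 159 CPM in skin 1, 2 and 3 (log2 fold change -3.84 ± 0.29, adjusted p = 2.79e-06). The secreted antagonist genes Sfrp2 and Sfrp4 were at 127 ± 57.7 CPM in thymus and 1869 ± 234 in skin and at 47.5 ± 23.4 CPM in thymus and 995 ± 162 in skin (-3.88 ± 0.50 and -4.39 ± 0.39). Rspo2, a potentiator of Wnt signalling known from the dermal papilla, was at 0.0196, 0.00839 and 0.0418 CPM in thymus and 10.4, 5 and 9.87 CPM in skin (-8.41 ± 0.46). The genes Axin2 and Nkd2, which respond to Wnt signals, were higher in thymus (2.95 ± 0.25 and 4.32 ± 0.39), with Axin2 at 55.3, 38.8 and 45.9 CPM in thymus and 4.61, 5.95 and 7.58 in skin. Tcf7 was higher (4.89 ± 0.75) at 45.4, 26.9 and 52.3 CPM in thymus 1-3, 2 and 3, and since thymocytes also express Tcf7 and their markers summed to 116, 77.8 and 209 CPM in the same libraries, their part in it was not tested.

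Of the 30 genes of the Notch and hedgehog pathways 11 were higher and 8 lower. Notch3, the receptor of vessel-wall cells, stood at 235, 308 and 217 CPM in thymus 1-3, 2 and 3 and at 7.98, 13.2 and 10.4 CPM in skin 1, 2 and 3 (log2 fold change 4.59 ± 0.27, adjusted p = 4.24e-07), and its target Heyl was higher (2.69 ± 0.28). Notch4 was higher as well (3.47 ± 0.54). The hedgehog target genes Gli1 and Hhip were lower in thymus (-1.41 ± 0.22 and -3.93 ± 0.66), whereas Gas1, a hedgehog co-receptor, was higher (1.26 ± 0.19). Dlk1 was at 3.89, 3.08 and 2.08 CPM in thymus and 53.1, 93.8 and 17.3 CPM in skin (-4.18 ± 0.77).

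In the retinoic acid list 7 of 24 tested members, of 27, were higher and 9 lower. The enzymes of synthesis differed by gene. Aldh1a2, the main retinal dehydrogenase of embryonic mesenchyme, stood at 15.8, 17 and 27.6 CPM in thymus and 1.63, 1.79 and 1 CPM in skin (log2 fold change 3.77 ± 0.29, adjusted p = 1.8e-06), and Rdh10, which makes retinal, was higher (1.64 ± 0.21). Adh7 and Dhrs9, other oxidising enzymes, were at 0.97 ± 0.695 CPM in thymus and 34.3 ± 3.03 in skin and at 0.763 ± 0.583 CPM in thymus and 30.0 ± 8.32 in skin, both lower (-5.14 ± 0.58 and -5.29 ± 0.58). The catabolic enzyme gene Cyp26b1 was lower (-3.11 ± 0.47), and Rarb, a receptor gene induced by retinoic acid, was higher (1.29 ± 0.24). By library size only, 5 members were lower.

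Genes of vessel-wall and contractile cells were higher in thymus for 13 of 22 members and lower for 1, with a median of 1.68. The count lower was 2 without skin 1 or skin 3 and by DESeq2. Des, encoding desmin, stood at 836, 682 and 556 CPM in thymus 1-3, 2 and 3 and at 12.5, 13.4 and 9.05 CPM in skin 1, 2 and 3 (log2 fold change 5.89 ± 0.31, adjusted p = 1.64e-07). Synpo2, an actin-binding protein of smooth muscle, stood at 158, 144 and 106 CPM in thymus and 1.64, 1.36 and 2.81 CPM in skin (6.12 ± 0.44), and Myh11, the smooth muscle myosin, at 37.9, 38.1 and 36.7 CPM in thymus and 0.304, 2.32 and 1.3 CPM in skin (4.86 ± 0.65). Rgs5 and Mcam, markers of pericytes, were higher (4.49 ± 0.34 and 3.14 ± 0.34), whereas Acta2, encoding smooth muscle actin, stood at 58.2 ± 14.5 CPM in thymus and 41.6 ± 35.3 in skin and was not called (adjusted p = 0.507). It was called higher without skin 3 (adjusted p = 0.00766) and in limma on log2(RPKM + 1) (adjusted p = 0.04). Myl9 was at 63.6 ± 19.2 CPM in thymus and 117 ± 16.5 in skin (-0.88 ± 0.23), and its call was lost with library size only (adjusted p = 0.339).

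Genes that mark subsets of fibroblasts had 17 of 31 members lower, or 11 with library size only, and 7 higher. Itga8, an integrin subunit of vessel-associated fibroblasts, was at 76, 94.6 and 76.8 CPM in thymus and 2.18, 4.45 and 4.94 CPM in skin (4.42 ± 0.30), and Ptn, encoding pleiotrophin, was higher (3.25 ± 0.38). Nt5e, encoding CD73, and Cthrc1 were lower (-5.04 ± 0.39 and -3.18 ± 0.30). Sema3c and Ly6c1, known from adventitial fibroblasts, were lower too (-1.48 ± 0.28 and -2.57 ± 0.44). Dermal papilla genes had 7 of 23 tested members lower and 3 higher. Corin, a protease of the papilla, had 0 reads in thymus and stood at 0.652, 2.81 and 43.3 CPM in skin 1, 2 and 3, almost all of it in skin 3. Adipocyte lineage genes had 12 of 26 tested members lower and 2 higher, with Cebpb at 25.4 ± 5.44 CPM in thymus and 176 ± 49.5 in skin (-2.79 ± 0.25), and the higher members were Lpl, a lipase of the vessel wall (1.40 ± 0.19), and Apoe (2.28 ± 0.23). For adipocyte genes library size only gave 7 lower and 7 higher.

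MHC class I genes were higher in thymus for 11 of 19 tested members, of 21, and lower for 0, also 0 by DESeq2 and at an unadjusted p under 0.05, with a median of 1.10. All 19 were higher by library size only. B2m, the light chain, stood at 7764, 3623 and 3397 CPM in thymus 1-3, 2 and 3 and at 823, 1039.7 and 2789 CPM in skin 1, 2 and 3 (log2 fold change 1.67 ± 0.47, adjusted p = 0.0193). Thymus 1-3 stood well above the other thymus libraries and skin 3 above the other skin libraries, with thymus 3 only slightly above skin 3. The B2m call was lost without thymus 1-3 (adjusted p = 0.0816), without skin 1 (adjusted p = 0.0597) and without skin 2 (adjusted p = 0.0752). Nlrc5, the transactivator of these genes, was at 15.7, 22.6 and 22.5 CPM in thymus and 1.27, 1.29 and 5.96 CPM in skin (2.83 ± 0.59), and Erap1, which trims peptides, at 81.4, 118 and 114 CPM in thymus and 31.2, 33.7 and 34.9 CPM in skin (1.65 ± 0.17). Counts of H2 genes are uncertain where members are nearly identical in sequence. Interferon response genes had 4 of 32 higher (12.5%, against 19.3% of all genes) and 2 lower. Library size only gave 10 higher, and 4 were lower by DESeq2 and without skin 1. Ifi44 was at 15.2, 19.2 and 22.2 CPM in thymus and 0.573, 0.322 and 3.82 CPM in skin (3.58 ± 0.86), and Zbp1 at 26.3, 22.6 and 31 CPM in thymus and 60.3, 61.3 and 215 CPM in skin (-2.08 ± 0.45). Skin 3 had the highest level of both among the skin libraries, and without skin 3 the list had 11 members higher. MHC class II genes had 1 of 12 tested members, of 13, higher in edgeR, and 0 were lower in edgeR or in DESeq2. The count higher was 0 without thymus 3 or skin 2 and with thymus and skin libraries only. It was 2 without thymus 2 or skin 3 and by DESeq2, and 4 by library size only. Irf1, which is induced by interferon and NF-kB, was lower in every thymus library, at 75.8, 93.6 and 111 CPM in thymus and 472, 569 and 711 CPM in skin (-2.65 ± 0.19).

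Complement genes had 8 of 26 members higher and 5 lower. C3, the central component, stood at 22620.0, 25397 and 22568 CPM in thymus 1-3, 2 and 3 and at 1694, 2727 and 3557 CPM in skin 1, 2 and 3 (log2 fold change 3.15 ± 0.27, adjusted p = 4.1e-06). Masp1 and Colec12 were higher (4.14 ± 0.38 and 3.08 ± 0.17). Cd55, which protects cells from complement, was at 115 ± 17.6 CPM in thymus and 216 ± 27.4 in skin (-0.91 ± 0.16), a call lost with library size only (adjusted p = 0.17). The count of members lower was 2 with library size only, without thymus 2 and without skin 3, and 3 without thymus 1-3 or skin 2.

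Genes of the insulin-like growth factor axis had 6 of 21 tested members, of 22, higher and 10 lower, or 6 lower with library size only. Pappa, a protease that frees IGF from its binding proteins, stood at 39, 33.4 and 41.5 CPM in thymus 1-3, 2 and 3 and at 0.483, 0.689 and 0.346 CPM in skin 1, 2 and 3 (log2 fold change 6.24 ± 0.27, adjusted p = 3.49e-08), while its relative Pappa2 was lower (-3.46 ± 0.35). Igfbp7 was higher (2.68 ± 0.24) and Igfbp6 lower (-3.48 ± 0.24). H19, an imprinted RNA, was at 549, 177 and 458 CPM in thymus and 2972, 2943 and 623 CPM in skin (-2.47 ± 0.60), and Igf2, its neighbour, at 239, 92.7 and 173 CPM in thymus and 498, 727 and 125 CPM in skin (adjusted p = 0.065, or 0.00195 without skin 3). Both were low in skin 3 beside skin 1 and 2, and in thymus 2 beside the other thymus libraries. In the cell cycle list 2 of 31 members were higher and 7 lower. Ccnd1, encoding cyclin D1, stood at 366, 452 and 347 CPM in thymus 1-3, 2 and 3 and at 38.6, 48 and 43 CPM in skin 1, 2 and 3 (log2 fold change 3.17 ± 0.15, adjusted p = 6.94e-08). The count of 7 lower was 1 with library size only, 2 without thymus 2, 2 without skin 1, 3 without skin 2, 4 without thymus 3 and 19 without skin 3. Glycolysis and hypoxia genes had 12 of 26 lower and 2 higher, or 4 and 5 with library size only, with Hk2, a hexokinase, at 5.27, 4.57 and 8.19 CPM in thymus and 111, 180.5 and 203 CPM in skin (log2 fold change -4.78 ± 0.32, adjusted p = 1.5e-06) and Egln3, an oxygen-sensing hydroxylase, at 71.7, 70.7 and 63.8 CPM in thymus and 1.21, 2.21 and 3.39 CPM in skin (log2 fold change 4.92 ± 0.54, adjusted p = 7.45e-05).

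Among genes at 20 CPM or more in either tissue, the largest fold changes included genes outside these lists. Atcay, which encodes caytaxin of neurons, was at 25.6, 37.2 and 29.8 CPM in thymus and had 0 reads in skin, higher by at least 2530.4-fold. Ltc4s, the synthase of the leukotriene C4, stood at 146, 117 and 90.1 CPM in thymus and 0.045, 0.586 and 0.531 CPM in skin (log2 fold change 8.28 ± 0.77, adjusted p = 2.69e-05). Gja4, encoding the vessel-wall connexin 37, was at 38.4, 34.7 and 37.8 CPM in thymus and 0.135, 0.191 and 0 CPM in skin (8.45 ± 1.28). Art4, Csmd1, Pcdh12 and Rapgef5 were also higher (7.93 ± 0.79, 7.67 ± 0.37, 7.73 ± 0.84 and 7.75 ± 0.50). Sparcl1, encoding the matrix protein hevin, is given here for its large CPM difference and not for its fold change. It stood at 3597, 4029.8 and 3544 CPM in thymus 1-3, 2 and 3 and at 44.3, 80.1 and 63.1 CPM in skin 1, 2 and 3 (log2 fold change 5.90 ± 0.26, adjusted p = 3.49e-08). On the skin side, Ptx3, a secreted pattern recognition protein of inflamed tissue, stood at 3.95, 3.2 and 5.76 CPM in thymus 1-3, 2 and 3 and at 765, 1052 and 1746 CPM in skin 1, 2 and 3 (log2 fold change -8.11 ± 0.46, adjusted p = 7.7e-07). Il31ra, a receptor subunit for the itch cytokine IL-31, stood at 0.0392, 0 and 0.0669 CPM in thymus and 35.6, 31.9 and 40.8 CPM in skin (-9.95 ± 0.67). Emx2, a homeobox factor, was at 0.216, 0 and 0.259 CPM in thymus and 44.8, 38 and 39 CPM in skin (-8.01 ± 0.71). The rest of the 12 lowest were the Hox genes and Zic1 given above and keratins of the hair follicle.

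Markers of other cells differed between the tissues. Of 13 thymocyte markers 11 were higher in thymus, and they summed to 116, 77.8 and 209 CPM in thymus 1-3, 2 and 3 and to 6.85, 5.51 and 8.26 in skin, with 5 of the 13 at 0 reads in skin. Rag1, the recombinase gene of immature lymphocytes, stood at 29.3, 19.1 and 58.2 CPM in thymus, and Cd3e, of the T cell receptor complex, at 6.93, 3.16 and 10.0. Mesothelial markers were higher for 6 of 8 and summed to 59.9, 33.0 and 151 CPM in thymus and 7.47, 8.31 and 12.6 in skin, and Upk3b stood at 10.6, 5.98 and 38.5 CPM in thymus 1-3, 2 and 3. Thymic epithelial markers were higher for 5 of 10 tested, of 11 (3 without thymus 1-3, thymus 3, skin 1 or skin 2), and summed to 60.2, 56.9 and 68.7 CPM against 21.0, 30.6 and 45.9. Most of that sum was Enpep, a peptidase gene also of vessel-wall cells, at 48, 45.2 and 49.1 CPM in thymus and 16.2, 24.9 and 33.6 CPM in skin (0.93 ± 0.22), while Foxn1, which defines these cells and is also expressed in hair follicles, was at 0.13 ± 0.112 CPM in thymus and 1.39 ± 2.11 in skin and Psmb11 at 0.294 ± 0.267 CPM in thymus and 0.0417 ± 0.0539 in skin.

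In skin, hair follicle markers were higher for 20 of 20 tested, of 21, and summed to 267, 258 and 1027 CPM in skin 1, 2 and 3 against 2.73, 1.52 and 2.66 in thymus, where 9 of the 21 had 0 reads. Krt71, an inner root sheath keratin, stood at 76.3, 70.5 and 240.5 CPM in skin 1, 2 and 3 with 3 reads in thymus. Krt31, of the hair cortex, stood at 1.36, 2.95 and 38.3 in the same order. Without skin 3, 19 hair markers were lower in thymus. Keratinocyte markers were lower in thymus for 9 of 13 tested, of 14, summed to 80.8, 93.9 and 263 CPM in skin and 33.3, 27.7 and 30.3 in thymus, and 6 were lower without skin 3. Skeletal muscle markers summed to 49.0, 33.9 and 22.1 CPM in skin and 6.38, 2.77 and 4.80 in thymus, with 6 of 8 tested, of 12, lower in thymus. Melanocyte and Schwann cell markers were lower for 8 of 11 tested, of 13, and higher for 1, with 4 of the 13 at 0 reads in thymus. Their sums overlapped, at 151, 129.9 and 118 CPM in thymus and 111, 133 and 137 in skin. Endothelial markers summed to 107, 69.2 and 104 CPM in thymus and 255, 290.1 and 354 in skin, and had 3 of 12 lower and 2 higher. The count higher was 1 without thymus 1-3, thymus 3, skin 1 or skin 2. Most of the skin sum was Tek, an angiopoietin receptor, at 44.4 ± 13.9 CPM in thymus and 236 ± 39.3 in skin (-2.41 ± 0.25). Kdr was lower in thymus as well (-2.20 ± 0.33), while Emcn was higher (3.63 ± 0.37). Cdh5, which defines endothelium, was at 6.2 ± 2.84 CPM in thymus and 6.12 ± 1.52 in skin (adjusted p = 0.979). Myeloid markers had 4 of 14 lower (8 without thymus 3 and 7 by DESeq2) and 3 higher, and summed to 19.2 to 59.2 CPM in thymus and 56.2 to 128 in skin. Markers of mast cells (1 of 7 tested lower), B cells (3 of 7 higher and 1 lower), adipocytes (0 of 3 called) and red cells (1 of 5 lower) summed to at most 4.47 CPM in the thymus libraries and 4.52 CPM in the skin libraries for any list. Their counts moved with single libraries. The mast cell count was 0 without thymus 1-3, thymus 2 or skin 1. The B cell count lower was 0 without thymus 1-3, thymus 3 or skin 3, and with thymus and skin libraries only 2 B cell markers were tested and 0 called. The red cell count was 2 without thymus 3. The part of these cells, and of the vessel-wall and contractile cells described above, in the results above was not tested.

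**Figure D5:**
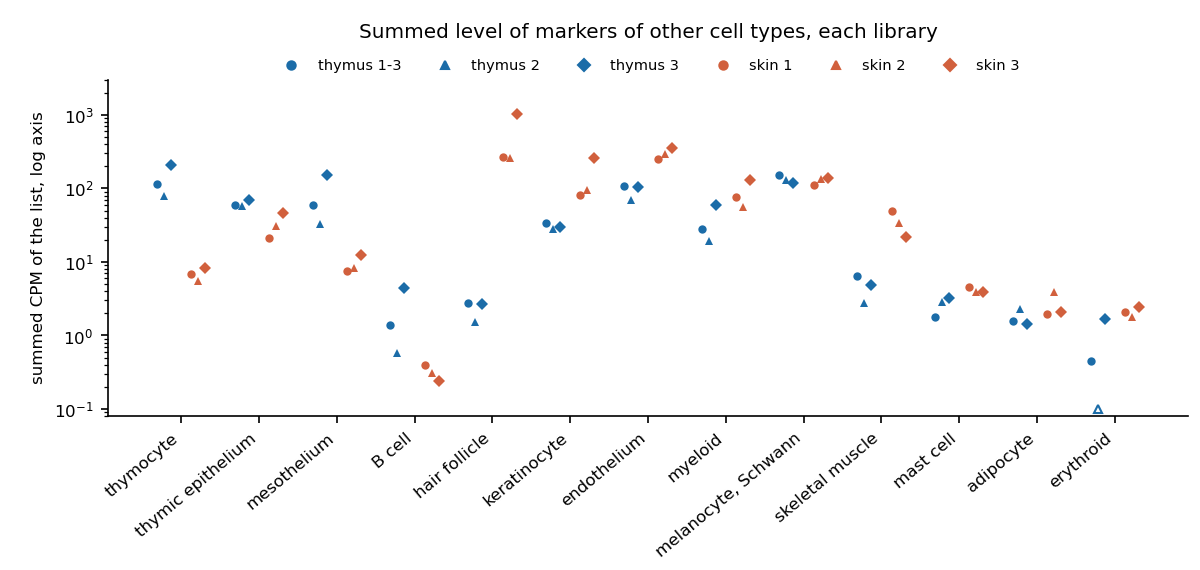
Summed levels of marker genes of 13 other cell types in each library, in TMM-scaled CPM on a log axis. Blue symbols are thymus libraries and orange symbols skin libraries, the shapes tell the libraries apart, and the open symbol marks a sum below 0.1 CPM. Skin 3 holds 1027 CPM of hair follicle markers against 267 and 258 in skin 1 and 2, and thymus 3 holds the most thymocyte and mesothelial markers.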

How the data were processed

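RNA of sorted Lin- SCA1+ cells was sequenced by the submitters, and 2 kinds of values were used. Read counts per gene were deposited for each library, and the authors also deposited RPKM values, reads scaled by gene length and library size. Named in the submitters' processing notes are HTSeq 0.5.4, CASAVA 1.8.2 and mm10 (aligner and strand setting: not given in the sources used here). Summary lines that name no gene held 9.89 to 10.9% of the counts in thymus and 5.05 to 5.98% in skin and were left out.

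Counts of all 9 libraries (bone included, for a shared estimate of spread with 6 residual degrees of freedom) were fitted in R 4.3.3 with edgeR 4.0.16, using filterByExpr, TMM factors and the robust quasi-likelihood test of thymus against skin. Benjamini-Hochberg adjustment ran over all tested genes. RPKM served for levels between genes and, with limma 3.58.1, as an alternative. DESeq2 1.42.0 was another alternative. The fit was tested on simulated data. Some genes that the naming rule below picks are not reported here. Promoter letters came from RefSeq.

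The members and lists were chosen with earlier results of these data known. Genes were named by this rule: the 12 highest and 12 lowest fold changes at 20 CPM or more without overlap, the 8 largest CPM differences each way, up to 4 members of a list in each direction at 5 CPM or more, the member of each list with the highest RPKM, and all Hox, dermal and positional factors. Further list members were named after their values were seen, namely Acta2, Btg2, Ccl7, Cdh5, Col7a1, Cxcl12, Dusp1, Flt3l, Fos, Foxn1, Il15, Il7, Jag1, Jun, Kitl, Klf4, Maff, Mcam, Myc, Nrp1, Plxnd1, Psmb11, Rgs5, Robo1, Sema5a, Sema6d, Slit2 and Tnfsf13b.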

Additional observations from a re-analysis of the deposited data

How the results depend on the processing

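Scaling by library size only called 7219 genes up and 1239 down in thymus (4172 and 887 at 2-fold or more), and 7 of the 5878 genes called with TMM were called in the opposite direction. After the 3 collagens were taken out, that scaling called 4511 higher and 1843 lower (2637 and 1124 at 2-fold or more), with a median log2 fold change of 0.32. In limma on log2(RPKM + 1), 6476 were higher and 1173 lower, and 571 were lower by at least 2-fold. With a pseudocount of 0.1 these were 6551 and 1188, with 3298 higher and 734 lower by at least 2-fold. Without the RPKM filter they were 6561 and 1349, with 598 lower by at least 2-fold. RLE and upper quartile factors, other count filters, thymus and skin libraries alone and DESeq2 moved each of these counts by less than 1.5 times.

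Leaving out 1 library at a time gave 2333 to 2873 genes higher and 2249 to 2842 lower, 1612 to 1945 and 1324 to 1569 by at least 2-fold, and a collagen share of 4.24 to 4.59% in thymus and 24.2 to 24.9% in skin. Thymus and skin share only the numbers 2 and 3, and deviations of same-numbered libraries correlated across genes at r = 0.0373 and 0.091. The other thymus and skin pairs gave r = -0.122 to 0.074. With 3 libraries per tissue these values cannot tell whether the numbers pair the samples. With the replicate number as a block, 2453 genes were higher and 2448 lower, 1661 and 1462 by at least 2-fold. Under that block B2m, Cxcl12, H19 and Hoxb9 were not called (adjusted p = 0.0966, 0.0758, 0.0788 and 0.0639), and 5 of 51 tested Wnt pathway genes were higher. Among named genes Cxcl12 changed sign with library size only, to a log2 fold change of 0.0077, and Dcn, Gata6, Hoxa5, Hoxd8, Sox9 and Tbx18 were called higher there. Low Hox and hair genes rest on few thymus reads, so depth limits the size of their folds.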

Other observations

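Genes of axon guidance, whose ligands and receptors also steer vessels and migrating cells, differed in both directions, with 17 of 46 higher in thymus and 12 lower and a median log2 fold change of -0.17. Nrp1 and Nrp2, the neuropilins that bind class 3 semaphorins and VEGF, were at 570.0 ± 82.3 CPM in thymus and 99.3 ± 8.6 in skin and at 220.1 ± 19.2 CPM in thymus and 15.3 ± 1.51 in skin (2.52 ± 0.15 and 3.85 ± 0.14). Plxnd1, a plexin partner of the neuropilins, stood at 278, 319.8 and 254 CPM in thymus 1-3, 2 and 3 and at 26.6, 37.9 and 26.6 CPM in skin 1, 2 and 3 (log2 fold change 3.23 ± 0.18, adjusted p = 1.81e-07). The netrin receptor genes Unc5b and Unc5c were higher (3.64 ± 0.35 and 6.52 ± 0.60), and Unc5c stood at 35.3, 44.4 and 39.1 CPM in thymus and 0.36, 0.0879 and 0.819 CPM in skin. Robo1, a receptor for Slit proteins, and Slit2, a ligand, were higher together (2.21 ± 0.19 and 1.20 ± 0.25). In all of these genes every thymus library lay above every skin library, which held for 27% of all genes tested.

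Several ligand genes were lower in thymus. Ntn1, encoding netrin-1, stood at 87.5, 57.2 and 85.9 CPM in thymus 1-3, 2 and 3 and at 438, 561 and 388 CPM in skin 1, 2 and 3 (log2 fold change -2.59 ± 0.21, adjusted p = 2.3e-06). Sema3b was at 31.6 ± 0.348 CPM in thymus and 399.9 ± 51.1 in skin (-3.66 ± 0.15), and Sema3e, a ligand of plexin D1, at 0.49, 0.117 and 1.42 CPM in thymus and 33.4, 26 and 22.8 CPM in skin (-5.33 ± 0.64). Sema5a and Sema6d, transmembrane semaphorins, were higher (2.73 ± 0.19 and 2.49 ± 0.18).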
